A study of Mus musculus with 15 samples.

Results

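The thrombospondins are secreted glycoproteins of the extracellular matrix, and the members described here are Thbs1, Thbs2, Thbs3 and Thbs4 in the mouse heart after abdominal sepsis. They were taken as every probe set that the array annotation pairs with exactly 1 of these symbols. That gave 6 of the 22690 probe sets on the array, with 2 each for Thbs1 and Thbs2 and 1 each for Thbs3 and Thbs4. The family was chosen on the per-array values of these same 15 arrays in the 5 groups. The members' values and differences are therefore a description, with standard errors and no p-values.

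Whole hearts were profiled on 15 oligonucleotide arrays, 1 per heart, in 5 groups of 3, all collected 48 h after surgery. Septic mice underwent caecal ligation and perforation (CLP): the caecum, tied and pierced, leaks gut bacteria into the abdomen. Sham mice had the caecum exposed and put back. All mice had isoflurane, buprenorphine and saline, and were catheterised under ketamine and xylazine before the heart was taken. The groups were septic C57/BL6 wild-type hearts labelled Max Dep, septic wild-type hearts labelled Min Dep, wild-type sham hearts, septic hearts of congenic B6.129P2-Nos2tm1Lau/J mice, and sham hearts of that strain. These congenic mice lack Nos2, the inducible nitric oxide synthase, in every cell. The study's title concerns myocardial depression. The sources used here state neither what the words Max Dep and Min Dep rank nor the age or sex of the mice.

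Values from the genotypes are on different scales and were never joined. Wild-type values are standardised units, in which every probe set has about the same spread over the 9 arrays, so they hold neither a level nor a fold change. Knockout values behave as log differences centred per probe set, with the log base not given. On neither scale can the level of 1 thrombospondin be set against that of another, and the presence of heart markers cannot be checked. Genotype also cannot be told apart from table or array model. Knockout CLP replicate 1 lay between the other CLP arrays at 76.0% of probe sets and had the smallest SD over probe sets of the 3 CLP arrays, at 0.683. Whether it is a measurement of its own or an average of other columns was not settled, so the 3 CLP columns may hold fewer than 3 independent hearts. It was left out of the knockout means and fits, and its values are given beside them. In wild-type sham replicate 1 the Y-linked gene Eif2s3y stood at -2.48, against -0.68 or higher in the other 8 wild-type arrays. The difference between the 5′ and 3′ control probe sets of Gapdh and Actb, a rough guide to RNA integrity, was -1.85 to 0.53 in Max Dep, -0.56 to 0.07 in Min Dep and 0.39 to 1.76 in sham wild-type hearts. In knockout hearts it was -2.06 to -0.78 after CLP and -1.97 to 0.98 after sham surgery. The targeted gene Nos2 ranged from -1.43 to 0.57 in knockout CLP and from -0.72 to 1.06 in knockout sham hearts, and from -0.98 to 1.78 in septic and -0.91 to 1.40 in sham wild-type hearts. Each table has its own centring, and the genotype cannot be read from them.

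Thrombospondins are matricellular proteins: they sit in the matrix and act on cells rather than bearing load. Thbs1 and Thbs2 form trimers with type 1 repeats. They restrain the growth of blood vessels through the receptor CD36, and Thbs1 also activates latent TGF-beta and, through CD47, dampens nitric oxide signalling to guanylate cyclase. Thbs3, Thbs4 and the related gene Comp encode pentamers that lack the type 1 repeats. In mice, Thbs2 is needed for the integrity of the loaded cardiac matrix, and Thbs4 also acts inside heart muscle cells, where it promotes the ATF6 arm of the endoplasmic reticulum stress response.

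The 250 bases upstream of the annotated starts are shown for Thbs2, Thbs3 and Thbs4, the 3 of 4 members matched in the promoter table, so that their starts can be compared. Thbs1 was not matched. The sequences are given as in the table (RefSeq, GRCm38.p6, gene strand, 5′ to 3′). Capitals mark a motif found on either strand. The motif TATAAA reads TTTATA when it lies on the other strand. The motif CCAAT then reads ATTGG, and GGGCGG then reads CCGCCC. No matches overlapped. The Thbs2 stretch lies at chr17:14694263-14694512 on the minus strand, that of Thbs3 at chr3:89214930-89215179 on the plus strand and that of Thbs4 at chr13:92794819-92795068 on the minus strand.
Thbs2: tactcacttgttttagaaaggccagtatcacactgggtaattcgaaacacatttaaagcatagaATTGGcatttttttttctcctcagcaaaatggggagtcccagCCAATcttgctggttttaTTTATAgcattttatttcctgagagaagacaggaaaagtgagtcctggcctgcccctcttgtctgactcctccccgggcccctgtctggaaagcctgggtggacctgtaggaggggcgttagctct
Thbs3: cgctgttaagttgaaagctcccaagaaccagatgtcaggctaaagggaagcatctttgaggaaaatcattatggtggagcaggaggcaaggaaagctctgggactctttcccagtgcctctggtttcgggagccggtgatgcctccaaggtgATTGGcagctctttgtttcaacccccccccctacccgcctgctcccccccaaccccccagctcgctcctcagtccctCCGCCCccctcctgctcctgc
Thbs4: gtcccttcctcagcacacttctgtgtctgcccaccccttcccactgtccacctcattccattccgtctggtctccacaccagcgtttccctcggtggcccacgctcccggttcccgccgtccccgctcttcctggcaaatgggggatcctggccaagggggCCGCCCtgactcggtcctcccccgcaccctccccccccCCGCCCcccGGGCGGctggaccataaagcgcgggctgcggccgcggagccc
Upstream of Thbs2 were 1 TATAAA, starting 126 bases before the start on the other strand, and 2 CCAAT, but no GGGCGG. Upstream of Thbs3 were 1 CCAAT and 1 GGGCGG. Thbs4 had 3 GGGCGG and neither of the other motifs. Over the same window of 32851 promoters in the table, 12.4% held TATAAA, 33.8% CCAAT and 32.7% GGGCGG. These are matches of letters and do not show that a factor binds there.

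Thbs2 gave the largest difference of the family, in knockout hearts. At probe set 1422571_at it stood at -4.48, -4.66 and -4.67 in the 3 CLP hearts, against 0.36, 0.34 and 0.59 in the 3 sham hearts. At its other probe set, 1450663_at, it stood at -2.37, -3.00 and -2.58 after CLP, against 0.02, 0.41 and 0.08 after sham surgery. All CLP hearts lay below all sham hearts at both, and the gap was many times the spread within either group. Without CLP replicate 1, CLP minus sham was -5.09 ± 0.10 log units (SE, 2 and 3 arrays) at 1422571_at and -2.96 ± 0.22 at 1450663_at. With all 6 arrays it was -5.03 ± 0.10 and -2.82 ± 0.22. Both probe sets belong to 1 gene on the same arrays, so they are not separate evidence. Their differences were unlike in size and their log base is unknown, so no fold is given.

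Among all 20380 probe sets with 1 gene, 1422571_at had rank 45 from the lowest knockout difference and 1450663_at rank 401. The 3 lowest belonged to Slc6a6, the taurine transporter (-6.27 ± 1.00, SE), Tcf7l2, a transcription factor of Wnt signalling (-6.25 ± 1.24), and Car4, a carbonic anhydrase (-6.15 ± 0.88). Their standard errors were wider than those of Thbs2. Each standard error here rests on 5 arrays, of which 2 are CLP arrays. At 1422571_at the CLP arrays had an SD of 0.008. Thbs2 was chosen with its values known, so nothing is read from the sizes of these standard errors.

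**Figure D1:**
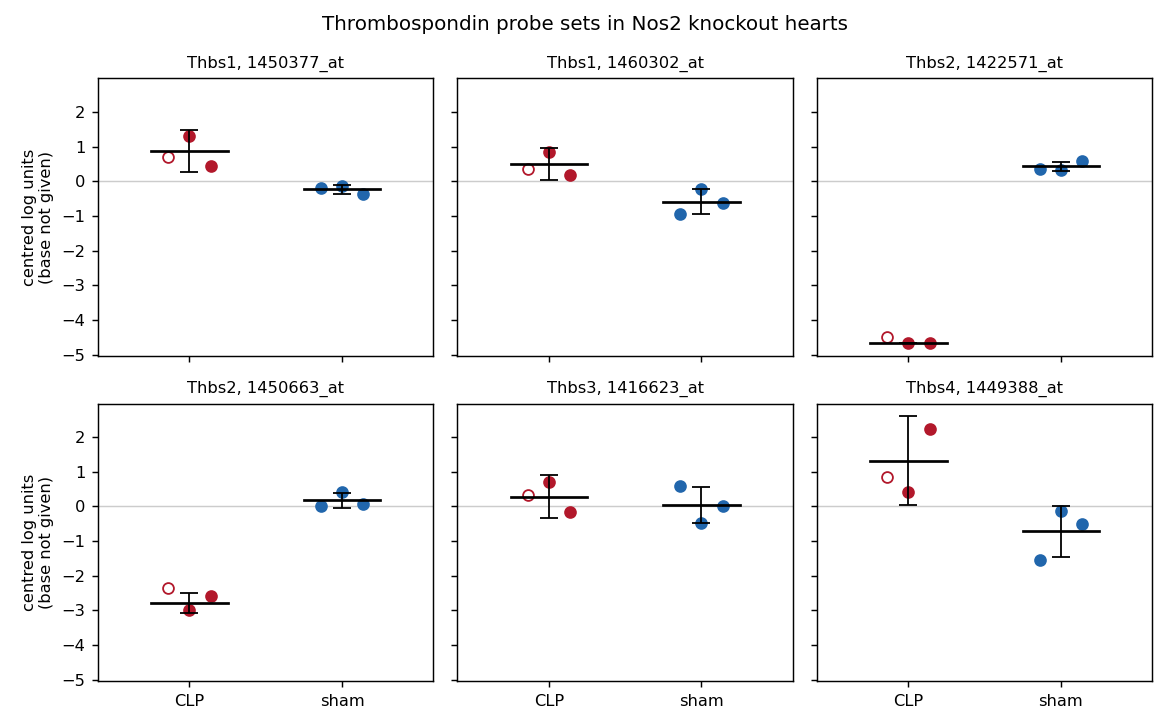
Knockout values of the 6 thrombospondin probe sets on the vertical axis (centred log units, base not given), by group. Points are hearts, the open point is CLP replicate 1, and bars are the mean ± SD of the filled points. Both Thbs2 probe sets lie far below sham after CLP, from -4.67 to -2.37, while Thbs1 and Thbs4 lie above sham and Thbs3 overlaps.

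Thbs1 lay higher in knockout CLP hearts, by a smaller amount. Probe set 1450377_at stood at 0.71, 1.30 and 0.43 after CLP, against -0.18, -0.13 and -0.37 after sham surgery. Probe set 1460302_at stood at 0.37, 0.83 and 0.18 after CLP, against -0.94, -0.21 and -0.63 after sham surgery. At both, every CLP heart was above every sham heart, and the 2 probe sets gave like differences of 1.09 ± 0.33 and 1.10 ± 0.36 log units (SE). The size depended on which CLP heart was used: at 1450377_at it was 0.66 without CLP replicate 2 and 1.52 without CLP replicate 3. Each of these values rests on 1 CLP array.

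Thbs4 stood at 0.85, 0.41 and 2.23 in knockout CLP hearts, against -1.55, -0.12 and -0.50 in knockout sham hearts. The groups did not overlap, but CLP replicate 3 stood well above the others. CLP minus sham was 2.04 ± 0.87 log units (SE), and it was 2.95 without CLP replicate 2 and 1.14 without CLP replicate 3. Those last values each rest on 1 CLP array. Thbs3 stood at 0.32, 0.72 and -0.15 after CLP, against 0.59, -0.47 and 0.00 after sham surgery. These groups overlapped, and the difference of 0.25 ± 0.51 was below its standard error.

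In the knockout table, 3 of 6 members lay wholly above sham after CLP and 2 wholly below, where 14.5% and 13.4% of all probe sets did so. By limma with eBayes moderation and Benjamini-Hochberg adjustment, 0 of 6 members and 0 of 20380 probe sets (0%) passed an adjusted p of 0.05. At an unadjusted p under 0.05 there were 2266 probe sets, and with unmoderated statistics again 0 passed the adjusted threshold. With all 6 arrays, 240 probe sets passed (1.18%), of which 168 were lower (0.824%), and both Thbs2 probe sets were among these. Those calls count CLP replicate 1 as an independent heart, which was not settled. The members were chosen with these values in view, so nothing about the family is read from these counts.

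**Figure D2:**
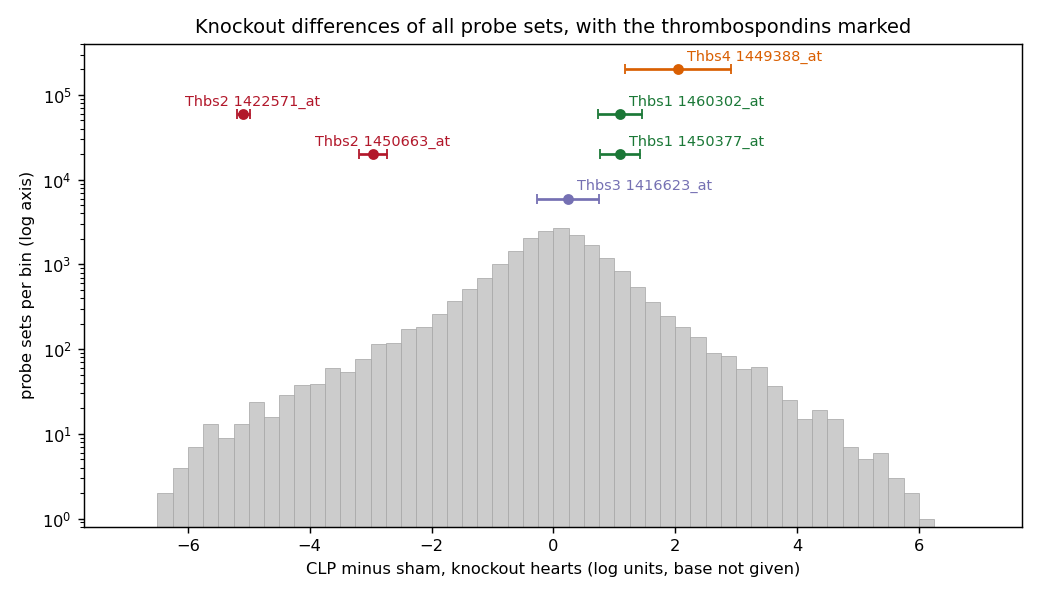
CLP minus sham in knockout hearts for 20380 probe sets (horizontal axis, log units of unknown base; 5 arrays), counted per bin on a log axis. Coloured points mark the thrombospondin probe sets with their SE, and their height has no meaning. Thbs2 at -5.09 lies in the lower tail and at -2.96 on the lower slope, Thbs3 at 0.25 lies near the centre, and Thbs1 and Thbs4 lie to the right.

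In wild-type hearts the picture differed, and Thbs1 was the member whose septic and sham hearts stood furthest apart. Probe set 1450377_at stood at -0.11, -0.27 and -0.29 standardised units in Max Dep hearts and at -1.58, -0.68 and -0.54 in Min Dep hearts, against 1.79, 1.46 and 0.36 in sham hearts. All 6 septic hearts lay below all 3 sham hearts. Septic minus sham was -1.78 ± 0.39 (SE, n = 6 and 3), and with adjustment for the 5′-to-3′ control contrast -2.22. The probe set ranked 964 from the bottom of 20380. The other Thbs1 probe set, 1460302_at, stood at -0.79, -0.26 and -0.63 in Max Dep hearts and at 0.17, -0.03 and -1.50 in Min Dep hearts, against 0.66, 2.29 and -0.19 in sham hearts. Here the groups overlapped through sham replicate 3, and the difference was -1.43 ± 0.65. Without sham replicate 2 it was -0.74. Over the 9 wild-type arrays the 2 Thbs1 probe sets had a Pearson r of 0.596, and over the 6 knockout arrays 0.937. These are descriptions over arrays that share the group difference.

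The wild-type order of Thbs1 at 1450377_at was Min Dep lowest (-0.93 ± 0.57, SD, n = 3), Max Dep next (-0.22 ± 0.10) and sham highest (1.20 ± 0.75). Max Dep and Min Dep did not overlap, and Max Dep minus Min Dep was 0.71 ± 0.45 (SE). It was 0.39 without Min Dep replicate 1, and 0.30 for the mean of both probe sets. At 1460302_at Max Dep (-0.56 ± 0.27) and Min Dep (-0.45 ± 0.92) overlapped, with a difference of -0.11 ± 0.75.

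Thbs2, so far apart in the knockout table, showed no shared direction in the wild-type table. Probe set 1422571_at stood at -1.90, 0.36 and 1.73 in Max Dep hearts and at -1.24, -0.26 and 0.18 in Min Dep hearts, against 0.05, 0.30 and 1.08 in sham hearts. Probe set 1450663_at stood at -0.93, 0.23 and 1.79 in Max Dep hearts and at 0.54, 0.51 and -1.10 in Min Dep hearts, against 0.06, 0.37 and -1.66 in sham hearts. Max Dep hearts spanned nearly the whole range at both. Septic minus sham was -0.66 ± 0.83 at the first and 0.58 ± 0.81 at the second, each within its standard error. The second turned to -0.04 without sham replicate 3 and to -0.29 with adjustment for the 5′-to-3′ control contrast. The 2 probe sets correlated at r = 0.247 over the 9 wild-type arrays and at r = 0.988 over the 6 knockout arrays, where the split between CLP and sham sets the value. Since wild-type values were scaled to equal spread, the size of these differences on an expression scale is unknown.

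Thbs3 stood at 0.17, -0.96 and -0.23 in Max Dep hearts and at -1.44, 1.81 and -1.12 in Min Dep hearts, against 1.04, 0.13 and 0.75 in sham hearts. Min Dep replicate 2 was the highest of the 9, so the groups overlapped, and septic minus sham was -0.94 ± 0.79. Thbs4 stood at 0.23, 0.98 and -0.31 in Max Dep hearts and at -0.42, -2.42 and -0.03 in Min Dep hearts, against 1.64, 0.35 and 0.03 in sham hearts. Septic minus sham was -1.003 ± 0.68, with overlap, and -0.52 without sham replicate 1. All Min Dep hearts lay below sham, with a difference of -1.63 ± 0.79, which was -0.90 without Min Dep replicate 2. Max Dep overlapped with sham (-0.37 ± 0.79) and with Min Dep (1.26 ± 0.79, and 0.53 without Min Dep replicate 2).

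**Figure D3:**
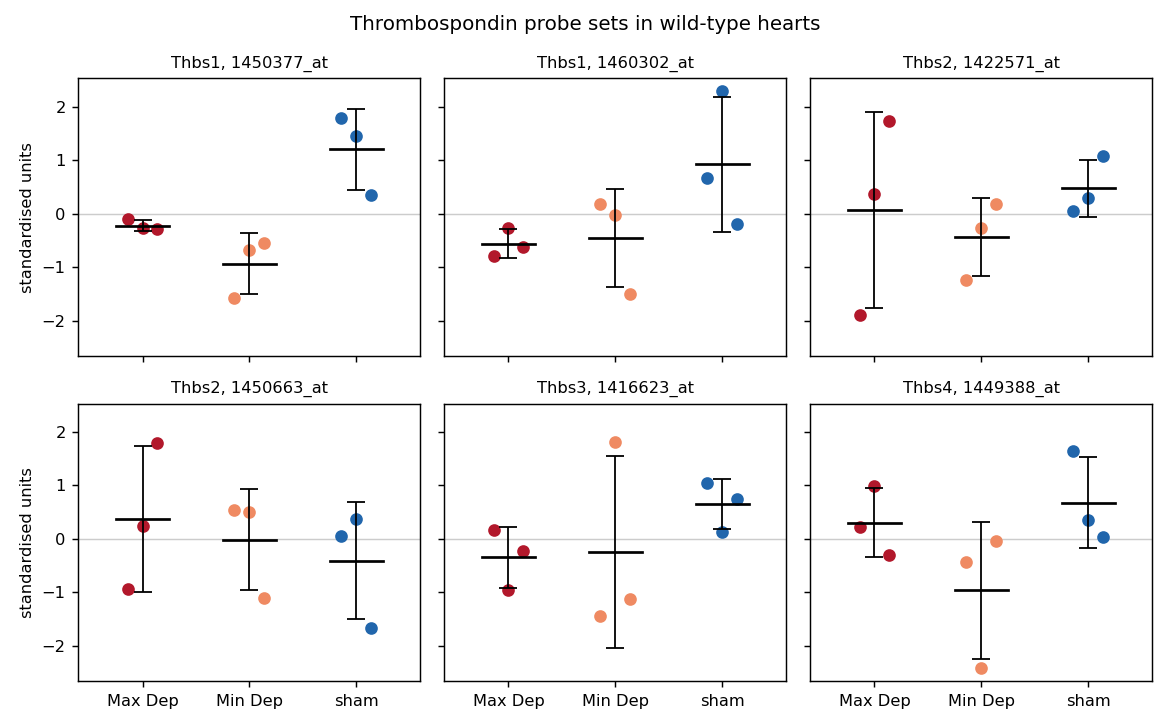
Wild-type values of the 6 thrombospondin probe sets on the vertical axis (standardised units) in Max Dep, Min Dep and sham hearts. Points are hearts and bars are mean ± SD (n = 3 each). At Thbs1 1450377_at all 6 septic hearts lie below sham, while at both Thbs2 probe sets the groups overlap widely.

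For septic against sham wild-type hearts, 0 of 6 members were among the 513 probe sets called by limma with unmoderated statistics (2.52% of 20380). Of the 6, 1 (Thbs1 1450377_at) lay wholly below sham, as did 7.95% of all probe sets. For Max Dep against sham 0 of 6 were called (background 1.08%), and both Thbs1 probe sets lay wholly below sham (background 14.2%). For Min Dep against sham 0 of 6 were called (background 0.55%), and Thbs1 1450377_at and Thbs4 lay wholly below sham (background 14.1%). For Max Dep against Min Dep 0 of 6 were called (background 0%, with 1979 probe sets at an unadjusted p under 0.05 and 0 adjusted with eBayes), and Thbs1 1450377_at lay wholly higher (background 8.97%). These comparisons share sham or septic arrays. Nothing about the family is read from the counts.

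Thbs1 at 1450377_at thus lay below sham in all 6 septic wild-type hearts and above sham in the 3 septic knockout columns, replicate 1 included. Of all probe sets, 144 (0.707%) had this pattern of no overlap in either table, and 135 (0.662%) had its reverse. The difference between genotypes was not tested, since the tables have different scales and genotype cannot be told apart from table.

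Comp, the remaining member of the gene family, was lower in every septic wild-type heart than in sham, as were 7.95% of all probe sets. It stood at -1.65, -0.47 and -0.86 in Max Dep and -0.26, -0.32 and -0.21 in Min Dep hearts, against 0.46, 1.45 and 1.79 in sham hearts. Its difference of -1.86 ± 0.37 did not pass (adjusted p = 0.0624, limma). In knockout hearts it overlapped, at -0.37 ± 0.50 (adjusted p = 0.881, limma).

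Genes whose pattern was most like each member were taken by Pearson r of gene means over the 9 wild-type arrays. Those nearest Thbs1 were Mmgt2 (r = 0.975), Mthfd1 (0.972), an enzyme of folate metabolism, and Aebp1 (0.943), a collagen-binding matrix protein. Over the 6 knockout arrays Mmgt2 had r = 0.881 and Aebp1 r = 0.839 with Thbs1, against 0.0796 for Mthfd1. Nearest Thbs2 were Nup43 (0.954), a nuclear pore subunit, Ptf1a (0.927) and Obi1 (0.927), with knockout r of -0.238, -0.740 and 0.776. The Thbs2 mean joins probe sets that correlated at only r = 0.247 over the 9 wild-type arrays, so it need not show the pattern of either. Nearest Thbs3 were Zbp1 (0.972), Aplf (0.955) and Ilrun (0.945), with knockout r of -0.00338, 0.390 and -0.833. Nearest Thbs4 were 3110070M22Rik (0.929), Ribc1 (0.924) and Plekhg2 (0.920), with knockout r of 0.757, -0.414 and -0.892. Each is the top of 12393 genes over few arrays that share the septic and sham split. Of these 12 genes, 6 had an r below 0 in the knockout table.

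The wild-type calls in the gene lists that follow rest on the unmoderated fit. With eBayes moderation 0 of 20380 probe sets passed, and 0 passed with adjustment for the 5′-to-3′ control contrast, which was higher in 2 of 3 sham hearts than in every septic heart, so each of these calls is lost under either setting. Over all probe sets, 0.976% rose and 1.54% fell in septic against sham wild-type hearts.

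The receptors and binding partners of thrombospondins had calls in both directions. In septic against sham wild-type hearts, 4 of 54 probe sets of 20 genes rose and 3 fell (0.976% and 1.54% over all), with a median of -0.45 against 0.03 over all probe sets. Calr, the calreticulin that carries the Thbs1 signal at the cell surface and folds proteins in the endoplasmic reticulum, rose at all 3 of its probe sets, by 2.08 ± 0.20 at the highest (SE, adjusted p = 0.0242, limma). Sirpa, the myeloid partner of CD47, rose at 1 of 3 probe sets (2.05 ± 0.25, adjusted p = 0.0290, limma), and the others stood at 0.22 and -0.37. Falls were in Cacna2d1, a calcium channel subunit known to bind thrombospondins (-2.10 ± 0.19, adjusted p = 0.0224, limma), and Itgb1, the beta integrin chain (-2.07 ± 0.33 and -2.02 ± 0.34, adjusted p = 0.0419 and 0.0452, limma). The other probe sets of these genes did not pass, at -1.72 for Cacna2d1 and at -1.96, -1.77, -1.22 and -0.30 for Itgb1.

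Neither of the best-known receptors passed. Cd36 differed by -1.67, 0.59 and 1.38 at its 3 probe sets in wild-type hearts, and by -3.53, -2.72 and 0.17 log units in knockout hearts. Cd47 lay between -0.54 and 1.49 at 4 probe sets in wild-type hearts, and between -0.69 and 0.37 in knockout hearts. Of the 54 probe sets 0 passed in knockout hearts, with a median of -0.35 against 0.04 over all. The highest differences there were those of Sdc4, a heparan sulfate proteoglycan (4.45 ± 2.56), and 1 probe set of Sirpa (2.99 ± 0.38, adjusted p = 0.123, limma), whose others stood at 0.07 and 0.48. Calr stood at 2.80 ± 0.64 at its highest. The lowest were Itga6, an integrin chain (-4.22 ± 2.21), and Cd36, and Notch3, a receptor of mural cells, stood at -3.17 ± 0.51 and -2.72 ± 0.36.

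Genes of CD47 and nitric oxide signalling had a median of -1.19 over 11 probe sets in wild-type hearts (0.03 over all), and 0 passed. Of these, 3 were positive and 8 negative, with Kdr highest (1.60 ± 0.39). The guanylate cyclase subunits, which answer nitric oxide, differed by -1.88 and -1.38 at Gucy1a1 and by -1.86 and -1.12 at Gucy1b1. In knockout hearts the same list had a median of -2.21 (0.04 over all) with 0 passing, and again 3 were positive and 8 negative. The highest there was 1 probe set of Vegfa (2.16 ± 0.88), whose other stood at 0.66. Gucy1b1 differed there by -2.65 ± 0.38 and -2.21 ± 0.51 log units, and Nos3, the endothelial nitric oxide synthase, by -3.60 ± 1.16.

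Of the TGF-beta genes, 1 of 33 probe sets rose and 2 fell in septic wild-type hearts (median -0.59), against 0.976% and 1.54% over all, and 0 did so under eBayes or the control adjustment. Ltbp4, which anchors latent TGF-beta in the matrix (-2.05 ± 0.30, adjusted p = 0.0394, limma), and Tgfbr3, the betaglycan co-receptor (-1.95 ± 0.31, adjusted p = 0.0419, limma), fell. Bambi, a decoy receptor, rose (1.95 ± 0.32, adjusted p = 0.0445, limma). In knockout hearts 28 of 33 differences were negative with a median of -0.35, and 0 passed. Ltbp4 again stood lowest, at -4.91 ± 0.55 log units (adjusted p = 0.111, limma).

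Other matricellular proteins lay mostly below sham on both scales. In septic wild-type hearts 18 of 23 probe sets were negative (median -1.48), and 1 fell (1.54% over all; 0 under eBayes or the control adjustment), in Ccn3, a cysteine-rich matricellular regulator (-2.10 ± 0.24, adjusted p = 0.0268, limma). Sparc, a collagen-binding matricellular protein, differed by -1.89 and -1.48, and Postn, the fibroblast product periostin, by -1.79. In knockout hearts 18 of 23 were again negative (median -1.35) and 0 passed. Sparc differed by -5.27 ± 0.99 and -2.55 ± 0.74 log units, Fbln5, an elastic fibre protein, by -4.11 ± 0.66, and Postn by -2.86 ± 0.60. Proteins that share the type 1 repeat showed no such lean: the median was -0.20 over 19 probe sets in wild-type and -0.34 in knockout hearts, with 0 passing in either. Cfp, the complement regulator properdin, was higher (1.86 ± 0.46 in wild-type and 2.84 ± 0.18 in knockout hearts), and Adamts5 was lower in knockout hearts at both probe sets (-5.88 and -4.27).

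Chaperones of the endoplasmic reticulum and ATF6 genes lay mostly above sham on both scales. The list is broader than the ATF6 arm that Thbs4 promotes in mouse heart muscle cells, and also holds Atf4 and Ddit3. A link to Thbs4 was not tested. In septic wild-type hearts 32 of 40 differences were positive and 8 negative (median 1.36). The lowest was Atf6b (-1.39 ± 0.67), a relative of Atf6, and Atf6 itself stood at -0.75 ± 0.63. Of the 40, 5 rose and 0 fell (0.976% and 1.54% over all; 0 rose under eBayes or the control adjustment), in Calr, 1 of 3 probe sets of Canx (1.84 ± 0.26, adjusted p = 0.0367, limma) and 1 of 4 of Xbp1 (2.06 ± 0.12, adjusted p = 0.0208, limma). In knockout hearts 39 of 40 differences were positive (median 2.33) and 0 passed, with Sdf2l1 at 4.88 ± 1.15 and Hspa5, the main chaperone of this compartment, at 3.91 ± 1.09 and 3.72 ± 1.16 log units. Calr is counted in this list and among the binding partners. Ccn2 is likewise counted in both the TGF-beta and the matricellular lists, and Kdr in both the nitric oxide list and the endothelial markers.

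**Figure D4:**
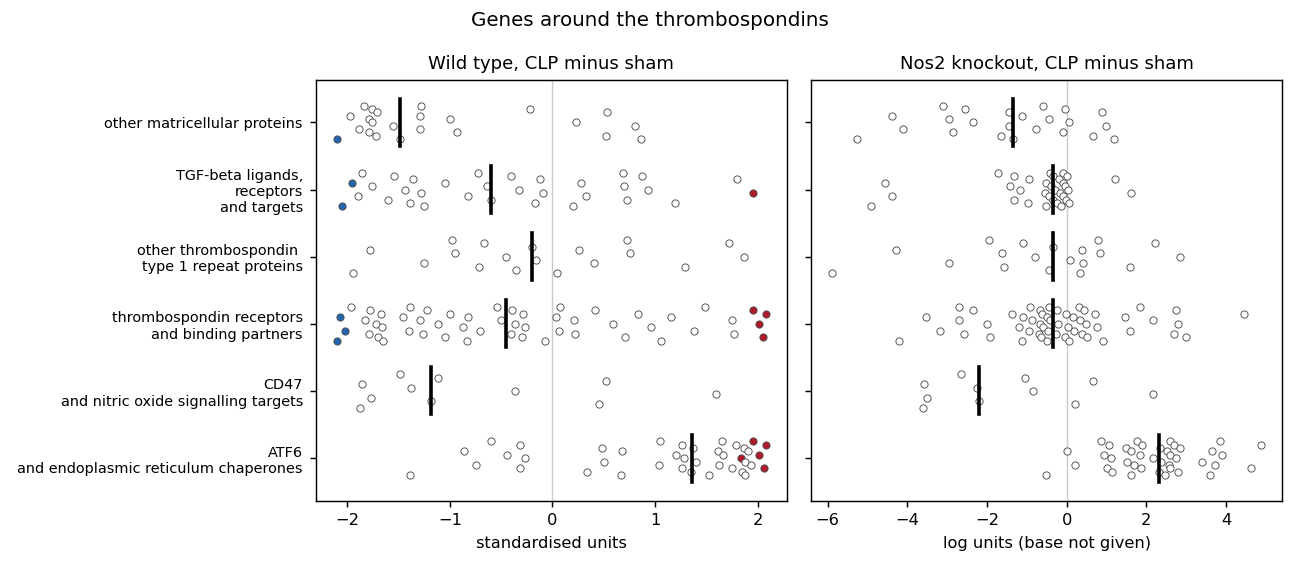
CLP minus sham for each probe set of 6 gene lists, in wild-type hearts (left, standardised units, all 6 septic arrays) and knockout hearts (right, log units of unknown base, 5 arrays). Red and blue points passed an adjusted p of 0.05 (limma) as higher and lower, white points did not, and black bars are medians. Matricellular genes lean below 0 with medians of -1.48 and -1.35, and the chaperone list lies above 0 with medians of 1.36 and 2.33.

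Markers of other cell types were summed as list means, and in knockout hearts 0 probe sets of any of these lists passed, as over all probe sets. In these whole hearts, fewer cells of a type and less RNA per cell cannot be told apart. Fibroblast markers averaged -1.84 to -0.78 in the 3 knockout CLP hearts and 0.28 to 1.01 in knockout sham hearts, with 17 of 22 probe sets negative. Among the 22 were several probe sets of Gsn (-4.73 to -3.95, and 0.66 at another). Col1a1 (0.88 and -0.18), Col3a1 (0.20 and 0.18) and Ddr2 (0.53) were near or above 0, while Col1a2 was lower (-2.22 and -0.90). Smooth muscle and pericyte markers averaged -1.52 to -0.68 after CLP and 0.52 to 0.93 after sham surgery (19 of 21 negative), and endothelial markers -2.28 to -0.34 and 0.32 to 2.12 (17 of 19 negative). Adipocyte markers averaged -2.43 to -0.91 after CLP and 0.49 to 1.19 after sham surgery (7 of 11 negative). That mean held 4 probe sets of Fabp4 (-5.88 to -5.23), while Adipoq (0.55), Lep (0.05) and both probe sets of Lpl (0.71 and 1.81) were above 0. The low Thbs2 values of knockout CLP hearts stood beside these shifts, and their part in it was not tested. In wild-type hearts, fibroblast markers averaged -1.57 to 0.42 in the 6 septic hearts and 0.81 to 1.02 in sham hearts, with 22 of 22 probe sets negative and 2 falling (1.54% over all). These and the next calls were lost under eBayes or the control adjustment. Smooth muscle and pericyte markers averaged -0.90 to 0.11 in septic and 0.61 to 1.17 in sham wild-type hearts (19 of 21 negative, 2 falling). Endothelial markers there leaned the other way with overlap, at 0.01 to 0.61 in septic and -1.02 to 0.08 in sham hearts (13 of 19 positive, 1 rising). The positive ones included several probe sets of Egfl7 (0.91 to 1.68). Negative ones included Pecam1 (-1.50) and both probe sets of Cdh5 (-1.73 and -0.09). Adipocyte markers overlapped, at -1.04 to 0.20 in septic and -0.11 to 1.03 in sham wild-type hearts (8 of 11 negative).

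Platelets carry Thbs1 in their granules, and macrophages also make it. Platelet markers averaged 0.31 to 0.75 in knockout CLP hearts and -0.50 to -0.24 in knockout sham hearts, without overlap, and 8 of 11 differences were positive with 0 passing. Ppbp (3.39 ± 0.35 log units) and Pf4 (2.61 ± 0.19), both chemokines of platelet granules, stood highest, while Gp5 (-0.05), Treml1 (-0.20) and Selp (0.16 and -0.01) were near 0. In wild-type hearts they averaged -0.43 to 0.89 in septic and -0.61 to 0.05 in sham hearts, with overlap, and 11 of 11 probe sets were positive with 0 passing. Macrophage and monocyte markers averaged 1.21 to 1.96 in knockout CLP hearts and -0.66 to 0.10 in knockout sham hearts, with 16 of 18 differences positive and 0 passing. The members were uneven: C1qb stood highest (5.10 ± 0.55 log units), while Csf1r (0.11, -0.01 and -0.42) and Ccr2 (0.45 to 0.75) stood lowest. Macrophage and monocyte markers averaged -0.32 to 1.00 in septic wild-type and -1.28 to -0.39 in sham wild-type hearts, with 4 of 18 probe sets rising (0.976% over all). Neutrophil markers averaged 1.11 to 2.34 in knockout CLP hearts and -0.48 to -0.12 in knockout sham hearts, with 12 of 13 differences positive and 0 passing. S100a9 stood highest (4.58 ± 0.66 log units), while Csf3r (-0.17), Cxcr2 (0.18), Mpo (0.38) and Elane (0.39) stood lowest. Neutrophil markers averaged -0.14 to 0.93 in septic wild-type and -0.90 to -0.58 in sham wild-type hearts, with 2 of 13 probe sets rising. Heart muscle markers overlapped, at -1.07 to 0.66 in knockout CLP hearts and -0.09 to 0.63 in knockout sham hearts, and at -0.86 to 0.59 in septic and 0.07 to 0.36 in sham wild-type hearts. Of their 20 probe sets 1 fell in wild-type hearts (1.54% over all). The wild-type calls of these 3 lists were also lost under eBayes or the control adjustment. Whether any of these lists bears on the Thbs1 values was not tested.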

How the data were processed

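The deposited data are 2 tables of scores for 22690 probe sets, 1 of 9 wild-type and 1 of 6 knockout arrays. As tested on the table, the deposited wild-type score is standardised: undoing a linear step per array leaves each probe set with mean 0 and SD 1 over the 9 arrays. The deposited knockout score is centred per probe set, and 54.2% of probe sets have 1 array at exactly 0. The authors' software and steps are not given in the sources used here, and intensities were not used, so signal over background is unknown. The number of arrays limits the precision.

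The 64 control probe sets were left out. In the platform annotation, 20380 probe sets named a single gene and were kept (12393 genes), 691 named more than 1 gene and 1555 named no gene. Each probe set was fitted by lmFit in limma 3.58.1 (R 4.3.3), with Benjamini-Hochberg adjustment over all 20380 and a threshold of 0.05. Wild-type statistics were unmoderated, with all 9 arrays in 1 fit, because moderation pulls rows of equal spread to a common value. Knockout statistics used eBayes on 5 arrays. Standard errors are unmoderated. P-values set a difference between groups against the spread between arrays within groups, and replicate numbers only name the arrays. Members, lists and rules were chosen with earlier results of these data known. Genes printed were taken from all thrombospondins, called members of each list, its 2 highest and 2 lowest differences, and the 3 genes most like each thrombospondin; not every extreme is printed. Others, such as Cd36, Cd47, Gucy1a1, Postn and the 3 lowest knockout probe sets, were added after their values were seen. No column belonged to a sample outside the labels.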

Additional observations from a re-analysis of the deposited data

Results flagged for a closer look

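Some probe sets had septic hearts wholly to one side of sham in the wild-type table (6 against 3 arrays) and wholly to the other in the knockout table (3 against 3). The difference between genotypes was not tested for any of them, and genotype cannot be told apart from table. Thbs1 1450377_at was at -1.78 standardised units in wild-type and 1.04 log units in knockout hearts (all 6 arrays). Vegfa 1451959_a_at, a vascular growth factor, was at -1.77 and 2.00, Smoc2 1431362_a_at at -1.72 and 0.95, and Ryr2 1421126_at, the calcium release channel, at -2.11 and 1.59. The reverse held for Kdr 1449379_at, the receptor of Vegfa (1.60 and -3.38), Smad4 1422486_a_at (1.79 and -4.49), Adamts7 1452339_at (1.72 and -2.98) and the endothelial gene Egfl7 1451428_x_at (1.68 and -3.50). Over all 20380 probe sets, 144 were lower in wild-type and higher in knockout hearts in this way, and 135 the reverse.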

How the results depend on the processing

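Of 384 values of the 6 members over 5 comparisons and their alternatives, 363 kept their sign, as did 20 of 30 differences under every alternative run. Both Thbs2 and both Thbs1 probe sets kept their sign throughout in knockout hearts, and both Thbs1 probe sets did so against wild-type sham. The knockout alternatives held no adjustment for the 5′-to-3′ control contrast. That contrast was -1.97, 0.21 and 0.98 in knockout sham hearts and -0.78 or lower in knockout CLP hearts, and its part in the knockout differences was not tested. Leaving out 1 array moved Thbs2 in knockout hearts between -5.14 and -5.01 at 1422571_at and between -3.17 and -2.75 at 1450663_at, and averaging the 2 gave -4.02. For Thbs1 1450377_at it gave -2.21 to -1.49 in wild-type hearts. In the knockout fit, leaving out a CLP array left 1 CLP array.

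The counts of probe sets called depended on the setting, and the cause was not tested. With gene means, septic against sham gave 89, Max Dep 56 and Min Dep 7. With eBayes moderation, and with adjustment for the 5′-to-3′ control contrast, each gave 0. Undoing the array standardisation gave 358 for Max Dep against 220. With only the 6 arrays compared, Max Dep gave 0 and Min Dep 3. Leaving out 1 array gave 0 to 443 for septic, 0 to 16 for Max Dep and 0 to 66 for Min Dep against sham (112 with all), and 0 to 2 for Max Dep against Min Dep. Among the 3 wild-type comparisons with sham, only leaving out Min Dep replicate 2 for septic against sham kept the count within 1.5 times. The knockout count was 240 with CLP replicate 1 included and 0 to 0 otherwise. No paired analysis was possible because replicate numbers only name the arrays. The number of arrays and the unknown signal over background limit all values.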
